A study of Mus musculus with 8 samples.

Results

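DNA replication and S-phase genes are described here in the cerebral cortex of mouse embryos with and without Taf8. They were chosen by gene symbol from a list of 52 genes with roles in origin licensing, the replicative helicase, polymerases, nucleotide supply and the entry into S phase. All 52 symbols matched 1 row each of the 27179 genes in the count table, and all 52 passed the filter on low counts, which left 15649 genes for testing. Polyadenylated RNA was sequenced from 4 embryos labelled Taf8 +/+ (wild-type) and 4 labelled Taf8 -/lox (Taf8-deleted, with a null and a lox allele), each library from its own embryo. Taf8 is part of TFIID, which recognises core promoters when the transcription machinery assembles. The sources used here do not give the strain, the embryonic day, the Cre driver or the cells in which it acts. No control embryo carries the null or the lox allele, so what carrying these alleles does by itself cannot be told apart from loss of Taf8. Wild-type replicates 1, 2 and 3 share the first part of their animal number (408.4, 408.5 and 408.6), wild-type replicate 4 is 409.2, and the deleted embryos are 456.1, 472.1, 477.1 and 486.1. Any litter or batch that this number marks cannot be told apart from genotype.

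Library totals were 26312505 to 65523487 counts. A floor of 3 counts, which covers counting error only, was 0.0469 to 0.112 CPM (counts scaled to library size, after TMM scaling). Levels below are in CPM, given as mean ± SD with n = 4 embryos per group unless a value per library is given, and log2 fold changes, written as log2 in parentheses, are Taf8-deleted over wild-type. Gene positions are from RefSeq (GRCm38.p6). Taf8 itself was 38.5, 35.0, 32.0 and 33.7 CPM in wild-type replicates 1 to 4 and 0.791, 0.747, 0.486 and 0.547 CPM in the deleted libraries, so the groups lay far apart. Marker lists fitted the labelled tissue: the cortical progenitor markers summed to 3478 to 3828 CPM in wild-type and 4214 to 4634 CPM in deleted cortex, with no marker at 0. Genes of postmitotic neurons summed to 5968 to 7189 CPM in wild-type and 4407 to 5005 CPM in deleted cortex, and 9 of 10 were lower in deleted cortex. Vessel markers (endothelial cells and pericytes) were higher in 10 of 10 cases (190 to 201 against 229 to 290.5 CPM), and meningeal fibroblast markers in 5 of 10 (27.9 to 48.2 against 23.5 to 143 CPM). Among red blood cell markers 5 of 7 were higher (258 to 336 against 347.5 to 469 CPM), and of 8 microglial markers 3 were higher and 1 was lower (39.6 to 45.5 against 42.4 to 54.6 CPM). Beside these marker counts, 29.6% of all tested genes were lower and 29.5% higher at adjusted p under 0.05 (edgeR). The part of these cell types in the results on replication genes was not tested, apart from a fit with the meningeal level as a covariate, which called 16 members lower and 9 higher. In whole tissue, fewer cells in S phase and less of a transcript per cell cannot be told apart.

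Replication of a chromosome is prepared in G1, when the origin recognition complex (ORC), CDC6 and CDT1 load the MCM2-7 helicase onto DNA as an inactive double ring. At the entry into S phase, kinases recruit CDC45 and the 4-subunit GINS complex to the ring, which turns it into the active CMG helicase. DNA polymerase alpha with primase starts each strand, polymerase epsilon extends the leading strand and polymerase delta the lagging strand, both held on DNA by the PCNA clamp that replication factor C (RFC) loads. Many of these genes are switched on together at the G1/S border by E2F factors. In the embryonic cortex the cycling cells are the progenitors of the ventricular and subventricular zones, and neurons have left the cycle.

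The question was how the transcripts of this machinery differed with Taf8 genotype. Of the 52 genes, 19 were lower, 9 were higher and 24 did not pass the test in deleted cortex (edgeR's quasi-likelihood test, adjusted p under 0.05). Over all tested genes 59.2% passed, 29.6% lower and 29.5% higher, beside 36.5% of members lower and 17.3% higher. Whether these shares differ was not tested, and the members were measured in the same libraries. The shares over all tested genes also stand beside the counts of each smaller group below, which hold few genes each. With scaling by library size alone, in place of TMM, 15 members were lower and 11 higher, so that 42.3% of the member calls were higher in place of 32.1%. Over all genes the same scaling took that share from 49.95% to 56.2% and the median log2 fold change from 0.01 to 0.05. The changes were small: the median log2 fold change was -0.08 over the members and 0.01 over all tested genes, and the median size was 0.21 against 0.27. Only Gmnn, Gins1, E2f1 and Tk1 differed by 1.5-fold or more, which is 7.69% of members against 21.8% of all tested genes, and all 4 were lower. In 21 members (40.4%) the 4 deleted libraries lay entirely on one side of the 4 wild-type libraries, 12 lower and 9 higher, against 53.6% of all genes tested. A test against a change of 1.2-fold left 7 members lower (Gins1, Gmnn, Tk1, Orc3, E2f1, Pola1 and Chaf1b) and 2 higher (Orc5 and Pole), where it called 14.9% of all genes lower and 14.7% higher.

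**Figure D1:**
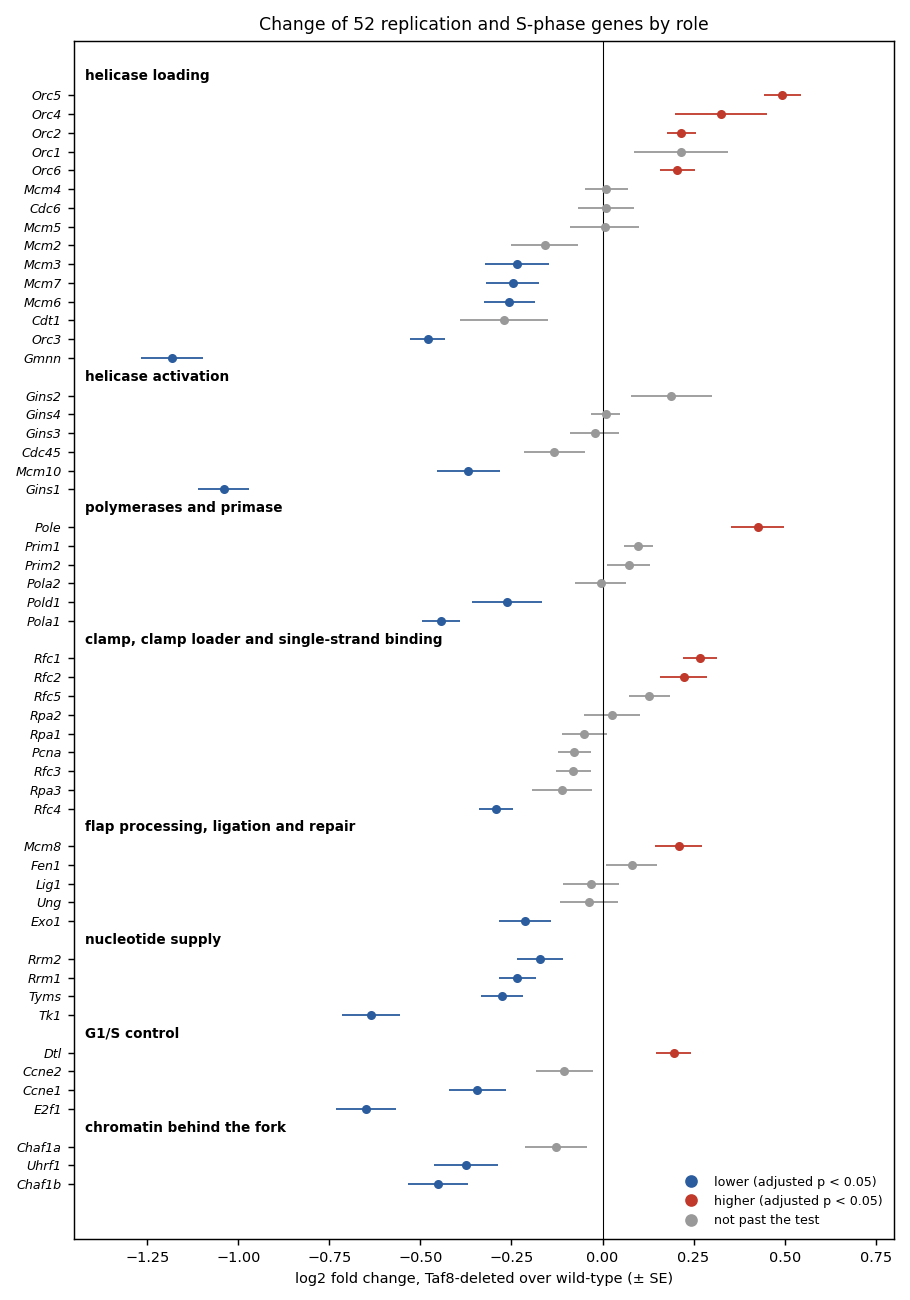
Log2 fold change (Taf8-deleted over wild-type, ± SE) of each of the 52 genes, ordered by role, with colour for lower, higher or not past the test. The 4 nucleotide supply genes were all lower, while helicase loading held 5 lower and 4 higher genes, and Gmnn and Gins1 stood farthest from 0.

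Wild-type replicate 3 stood apart from the other wild-type libraries in these genes. It was the lowest of the 4 wild-type libraries in 45 of the 52 members (86.5%), against 37.0% of all tested genes. Summed over the members, the wild-type libraries held 3949.5, 3766, 3253 and 3763 CPM and the deleted libraries 3313, 3512, 3480.1 and 3439.7 CPM, so replicate 3 alone fell below all 4 deleted libraries. The same library was the lowest wild-type library for 16 of 20 genes of G2 and mitosis and the highest for 7 of 10 genes of postmitotic neurons. It was also the deepest library, at 65523487 counts. Its counts differed from the other wild-type libraries by a chi-square over degrees of freedom of 22.1 to 27.0, beside 4.79 to 6.98 among those. The part of depth in this was not tested. The median coefficient of variation of a member was 9.98% in wild-type and 4.28% in deleted cortex, and 3.95% in wild-type without replicate 3. Over all tested genes it was 7.68% in wild-type and 6.19% in deleted cortex. Without it, 25 members were lower and 9 higher, beside 30.1% and 30.0% of all genes (60.1% in either direction). The 6 added were Mcm2, Cdt1, Cdc45, Pcna, Rfc3 and Chaf1a. The median log2 fold change of the members was then -0.11. Since this library was singled out by its low values in these same genes, the smaller spread and the added lower calls follow in part from that choice.

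**Figure D2:**
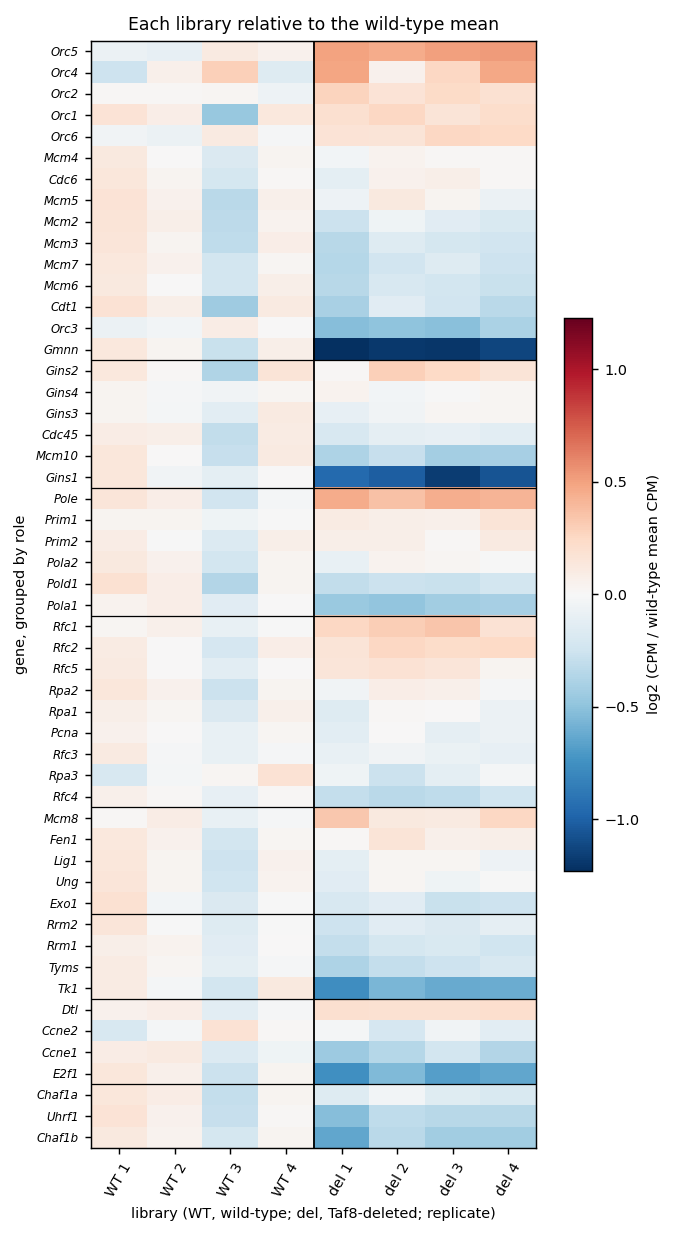
Log2 ratio of each gene in each library to the mean of the 4 wild-type libraries, with genes in rows ordered by role and the 8 libraries in columns. The column of wild-type replicate 3 is low for 45 of 52 genes relative to the other wild-type columns, and the rows of Gmnn and Gins1 are low in all 4 deleted columns.

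A shared sequence feature was looked for in the RefSeq promoter windows (GRCm38.p6, the same sequence as mm10, 250 bases before to 50 after the annotated start), which were present for 42 of the 52 genes. Rfc2, Exo1, Ccne2, Pole, Gins4, Gmnn, Gins2, Prim2, Gins1 and Mcm4 had no entry. The letters TTTGGCGC or TTTCCCGC, forms of the E2F motif, were searched on both strands. At least 1 of them lay in 13 of 42 member windows (31.0%), against 386 of 11840 tested genes (3.26%). Of these 13 genes, 6 were lower (Mcm3, Mcm6, Mcm7, Orc3, Pola1 and Pold1), 2 higher (Dtl and Mcm8) and 5 not past the test (Cdc6, Cdt1, Gins3, Mcm5 and Rfc3). Of the 29 member windows without either form, 10 belonged to lower genes, 5 to higher genes and 14 to genes that did not pass. The letters were thus held by genes of each outcome. The 5 stretches below show this: Mcm6, Pola1 and Orc3 were lower, Dtl was higher and Mcm5 was not past the test, and capitals mark the matched letters, which in Mcm5 and Pola1 read as GCGCCAAA, the reverse complement. Mcm6 (chr1:128359706-128359825, minus strand) is shown from base -120 to -1, counted back from the annotated start, and holds 2 matches. Mcm5 (chr8:75109349-75109467, plus strand) is shown from -160 to -42, Pola1 (chrX:93632276-93632305, minus strand) as 30 bases from -150, Orc3 (chr4:34614965-34614994, minus strand) from -52 to -23 and Dtl (chr1:191575545-191575574, minus strand) from -30 to -1.
Mcm6: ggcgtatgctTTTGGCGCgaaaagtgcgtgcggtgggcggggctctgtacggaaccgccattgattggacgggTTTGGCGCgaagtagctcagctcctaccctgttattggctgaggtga
Mcm5: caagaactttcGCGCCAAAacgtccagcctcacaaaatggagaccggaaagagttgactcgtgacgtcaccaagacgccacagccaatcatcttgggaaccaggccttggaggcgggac
Pola1: ggtcatcacaggGCGCCAAAtgcactcccg
Orc3: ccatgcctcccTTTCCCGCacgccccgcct
Dtl: caatcagaaagcgtgacgtcagTTTGGCGC

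Among the 15 helicase loading genes, 5 were lower (Gmnn, Orc3, Mcm3, Mcm6 and Mcm7), 4 were higher (Orc2, Orc4, Orc5 and Orc6) and 6 did not pass the test. These are 33.3% lower and 26.7% higher, near the 29.6% and 29.5% of all tested genes. Gmnn (Entrez gene 57441, chromosome 13, 24751845 to 24761937) encodes geminin, which binds CDT1 and keeps origins from being licensed a second time in S and G2. It had the largest fold change of all 52 genes. The wild-type libraries held 30.1, 28.1, 22.8 and 28.9 CPM and the deleted libraries 11.7, 12.04, 11.97 and 12.5 CPM. Every deleted library lay below every wild-type library, and the deleted values were closely spaced. Gmnn was 2.27-fold lower (log2 fold change -1.18, SE 0.09, adjusted p = 1.37e-06). The partner it inhibits, Cdt1, was 43.0, 39.9, 28.1 and 41.1 CPM in wild-type and 28.8, 34.4, 32.3 and 30.2 CPM in deleted cortex. Wild-type replicate 3 was the lowest Cdt1 value of all 8 libraries, so the groups overlapped and the test was not passed (log2 fold change -0.27, adjusted p = 0.0746). Without that library Cdt1 was lower, with a log2 fold change of -0.40 (adjusted p = 0.000291). DESeq2 on all 8 libraries also called Cdt1 lower (log2 -0.28, adjusted p = 0.0407), so that Cdt1 passed in 2 of 18 fits. Cdc6, the ATPase that works with ORC in loading, was 24.3 ± 2.43 CPM in wild-type and 24.4 ± 1.45 CPM in deleted cortex, a log2 fold change of 0.01 with an SE of 0.08.

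Of the 6 ORC genes, Orc2, Orc4, Orc5 and Orc6 were higher, Orc3 was lower and Orc1 did not pass the test. ORC1 to ORC5 form the ring that binds origin DNA, and ORC6 is the smallest, most loosely bound subunit. Orc3 (Entrez gene 50793, chromosome 4, 34566781 to 34614963) was 68.6, 70.1, 76.6 and 72.3 CPM in wild-type and 49.9, 50.9, 50.3 and 54.9 CPM in deleted cortex. Orc3 was one of 6 members in which wild-type replicate 3 was the highest wild-type library, and no values of the groups overlapped (log2 fold change -0.48, SE 0.05, adjusted p = 1.31e-05). Orc5 (Entrez gene 26429, chromosome 5, 22486480 to 22550338) went the other way, from 34.8, 34.1, 39.3 and 37.8 CPM to 51.4, 50.1, 51.9 and 52.4 CPM, again without overlap (log2 fold change 0.49, SE 0.05, adjusted p = 1.53e-05). Orc2 rose from 61.6 ± 1.82 to 71.6 ± 2.40 CPM and Orc6 from 50.02 ± 2.81 to 57.7 ± 1.92 CPM, each with all 4 deleted libraries above all 4 wild-type libraries (adjusted p = 0.000891 and 0.00405). Orc4 was called higher (log2 0.33, SE 0.13, adjusted p = 0.0449), yet its libraries overlapped widely, at 45.8, 57.1, 67.0 and 49.1 CPM in wild-type and 76.4, 56.6, 65.5 and 76.3 CPM in deleted cortex. The call of Orc4 was lost when any of 6 libraries was left out, all but wild-type replicate 3 and deleted replicate 2 (adjusted p = 0.0723 to 0.135), or with a replicate block (adjusted p = 0.0796). Orc1, which encodes the largest subunit, was low throughout at 7.70 ± 1.43 and 8.88 ± 0.244 CPM and did not pass the test (adjusted p = 0.173).

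The MCM2-7 genes, which encode the 6 subunits of the helicase ring, were the most abundant of this group. Mcm6 held 214, 198, 169 and 208 CPM in wild-type and 156, 172, 169 and 163 CPM in deleted cortex, lower by the test (log2 fold change -0.26, SE 0.07, adjusted p = 0.00922). Mcm7 fell from 175 ± 17.8 to 148 ± 8.32 CPM (adjusted p = 0.0136). For both genes wild-type replicate 3 lay among the deleted libraries and the other 3 wild-type libraries lay above them all. Mcm3 fell from 154 ± 20.4 to 131 ± 6.85 CPM (adjusted p = 0.0397), a call that was lost without any of 6 libraries, all but wild-type replicate 3 and deleted replicate 2 (adjusted p = 0.0528 to 0.0916). The Mcm3 call was also lost with scaling by the upper quartile or by library size alone, a replicate block, the meningeal covariate and limma voom (adjusted p = 0.0507 to 0.0896), and it held in 7 of 18 fits. Mcm2 was 206, 193, 147 and 189.8 CPM in wild-type and 154, 177, 167 and 162 CPM in deleted cortex and did not pass (log2 fold change -0.16, adjusted p = 0.161), but it did without wild-type replicate 3 (log2 -0.25, adjusted p = 0.00205). Mcm4 and Mcm5 had log2 fold changes of 0.01 (SE 0.06) and 0.01 (SE 0.09), and remained past no threshold without that library (adjusted p = 0.35 and 0.162). The promoter stretch of Mcm5 above holds the same E2F-like letters as that of Mcm6.

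**Figure D3:**
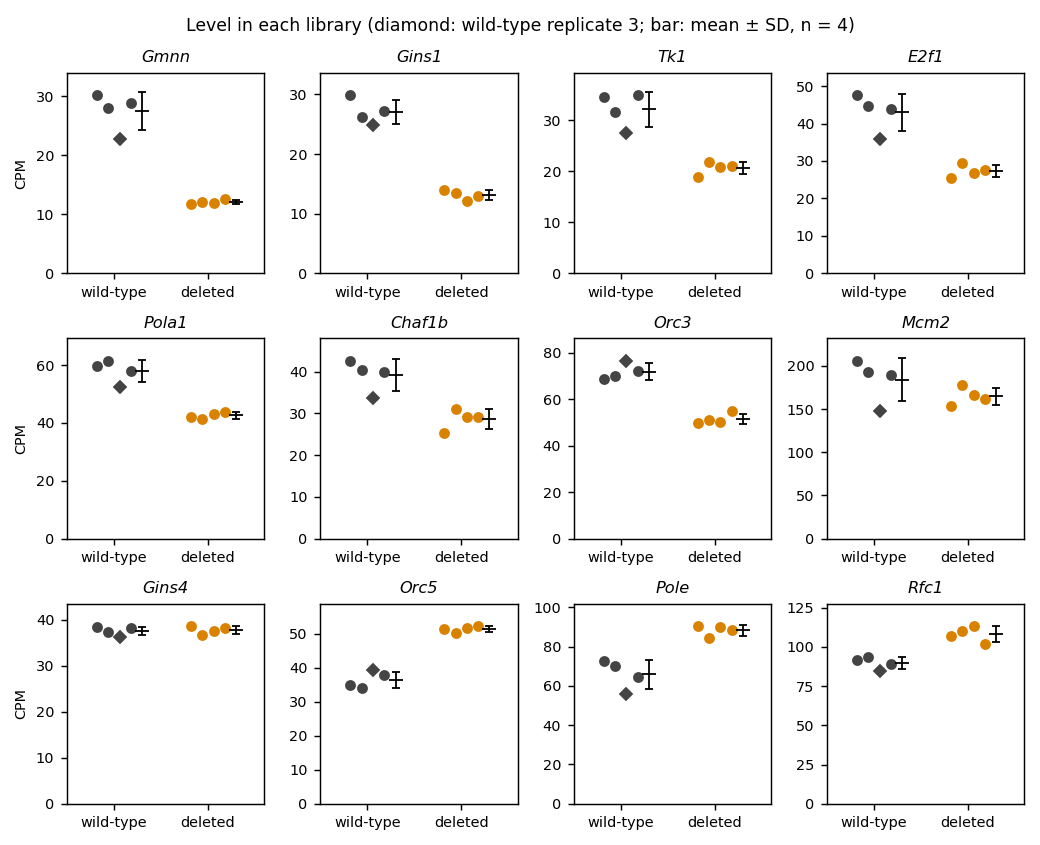
CPM in each of the 8 libraries for 12 genes, each panel with its own axis from 0, wild-type replicate 3 drawn as a diamond and the bar giving mean ± SD (n = 4). Gmnn, Gins1, Tk1, E2f1, Pola1, Chaf1b and Orc3 are lower in all deleted libraries, Orc5, Pole and Rfc1 are higher in all, and the groups overlap for Mcm2 and Gins4.

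Helicase activation was represented by Cdc45, the 4 GINS genes and Mcm10, of which 2 were lower, none higher and 4 not past the test. Gins1 (Entrez gene 69270, chromosome 2, 150909556 to 150931280) encodes the PSF1 subunit of GINS. It was 29.8, 26.3, 24.9 and 27.2 CPM in wild-type and 14.0, 13.4, 12.1 and 13.0 CPM in deleted cortex, so the lowest wild-type library was well above the highest deleted one. The log2 fold change was -1.04 (SE 0.07, adjusted p = 8.47e-07), a 2.06-fold lower level. The other 3 subunits did not follow it. Gins2 (PSF2) was 20.9, 19.4, 14.8 and 21.3 CPM in wild-type and 19.4, 23.5, 22.7 and 21.3 CPM in deleted cortex (log2 0.19, SE 0.11, adjusted p = 0.169). Gins3 (PSF3) was 15.6, 14.9, 13.9 and 16.4 against 14.2, 14.7, 15.5 and 15.4 CPM (log2 -0.02, SE 0.07, adjusted p = 0.798). Gins4 (SLD5) was 38.5, 37.3, 36.4 and 38.1 against 38.7, 36.7, 37.5 and 38.2 CPM (log2 0.01, SE 0.04, adjusted p = 0.862). For these 3 genes the libraries of the groups overlapped. Cdc45, the partner of GINS in the CMG helicase, was 42.0, 41.5, 32.1 and 42.3 CPM in wild-type and 34.4, 36.5, 36.8 and 36.0 CPM in deleted cortex. Its wild-type replicate 3 lay below every other library, and the test was not passed (log2 fold change -0.13, adjusted p = 0.195) unless that library was left out (log2 -0.22, adjusted p = 0.000715). Mcm10, which binds the CMG helicase as it becomes active, was 38.0, 34.7, 28.4 and 37.3 CPM in wild-type and 26.5, 28.4, 26.0 and 26.0 CPM in deleted cortex. It was lower by the test (log2 fold change -0.37, SE 0.09, adjusted p = 0.00381), with 3 wild-type libraries above all deleted ones and replicate 3 level with the highest of these.

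Since the subunits of a complex work at fixed ratios, the share of each subunit in the summed level of its complex was computed per library from CPM per kilobase of gene length. This share does not depend on how the libraries are scaled. In the GINS complex, Gins1 made up 30.8 ± 1.00% of the summed level in wild-type and 17.1 ± 1.15% in deleted cortex. The shares of the other 3 subunits were all higher, Gins2 at 24.3 ± 2.26% against 31.6 ± 2.23%, Gins3 at 8.34 ± 0.265% against 9.37 ± 0.353% and Gins4 at 36.6 ± 1.82% against 41.9 ± 1.54%. A share must rise in some subunit when it falls in another. All 4 GINS shares were without overlap between the groups. In ORC, the share of Orc3 was 12.5 ± 0.167% against 7.70 ± 0.324% and that of Orc5 19.4 ± 0.744% against 23.6 ± 0.366%, and the other 4 shares overlapped. In RFC the shares of 4 of 5 subunits did not overlap. In MCM2-7 they did not for Mcm4 and Mcm5, higher at 11.3 ± 0.441% against 12.8 ± 0.325% and 12.3 ± 0.380% against 13.9 ± 0.443%, and for Mcm6, lower at 20.9 ± 0.480% against 19.6 ± 0.0666%. The RPA trimer had 0 of 3 such shares. Over the 6 complexes, 14 of 28 subunit shares did not overlap between the groups. In CPM the groups did not overlap for 53.6% of all tested genes, and no such background was computed for shares. Because shares within a complex are tied, these counts are a description only.

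**Figure D4:**
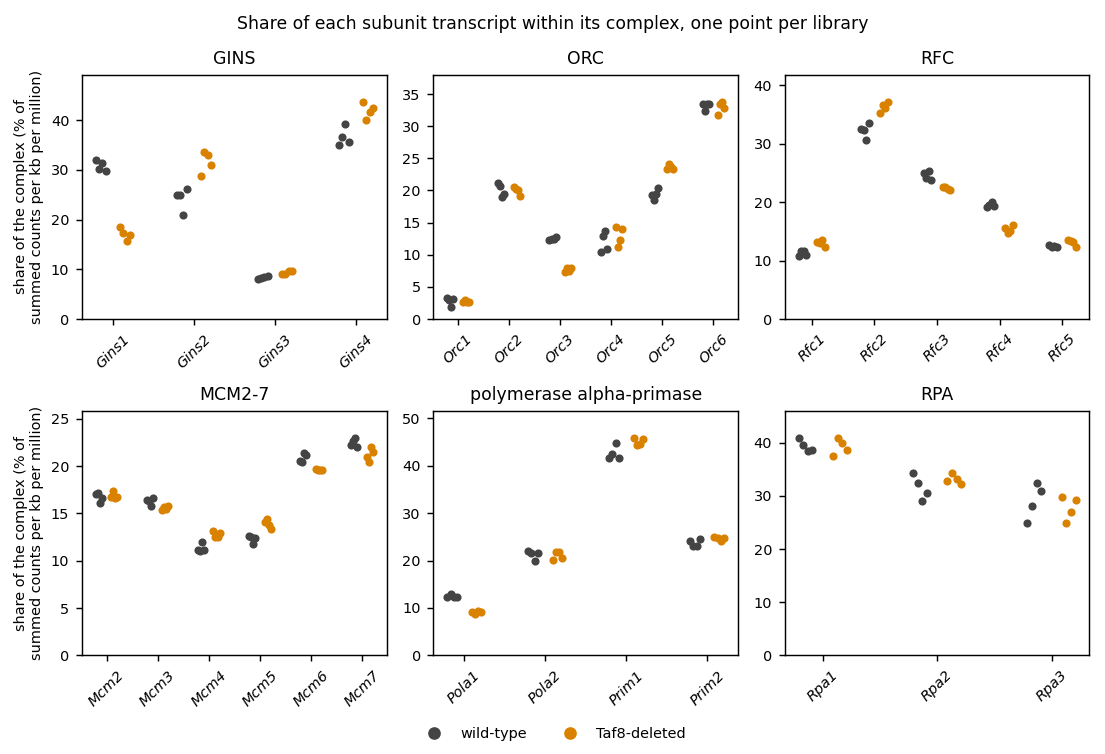
Share of each subunit in the summed CPM per kilobase of its complex (percent, axes from 0), 1 point per library, for GINS, ORC, RFC, MCM2-7, polymerase alpha-primase and RPA. The Gins1 share is 30.8 ± 1.00% in wild-type and 17.1 ± 1.15% in deleted cortex, Orc3 is lower and Orc5 higher, and the 3 RPA subunits overlap between groups.

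The polymerases and primase had 6 members, 2 of them lower, 1 higher and 3 short of the threshold. Pola1 (Entrez gene 18968, chromosome X, 93304766 to 93632387) encodes the catalytic subunit of polymerase alpha. It was 59.8, 61.5, 52.6 and 58.1 CPM in wild-type and 42.2, 41.3, 43.1 and 43.8 CPM in deleted cortex, without overlap (log2 fold change -0.44, SE 0.05, adjusted p = 4.05e-05). The other 3 subunits of that complex did not pass the test. Pola2, its accessory subunit, was 53.5 ± 5.33 against 53.2 ± 2.13 CPM (adjusted p = 0.956). Prim1, the catalytic primase subunit, was 58.2, 58.3, 54.7 and 56.6 CPM in wild-type and 61.2, 59.7, 59.4 and 63.4 CPM in deleted cortex, higher in all 4 deleted libraries but just short of the threshold (log2 fold change 0.10, adjusted p = 0.0515). It passed with scaling by the upper quartile or by library size alone (adjusted p = 0.0156 and 0.0106). Prim1 also passed with a filter of 1 CPM in 4 libraries or with the meningeal covariate (adjusted p = 0.0316 and 0.0493). Prim2, the large primase subunit, was 40.1 ± 3.17 against 42.0 ± 1.13 CPM (adjusted p = 0.313). The share of Pola1 in the complex was 12.4 ± 0.298% in wild-type and 9.06 ± 0.196% in deleted cortex.

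The catalytic subunits of the replicative polymerases went in opposite directions. Pole (Entrez gene 18973, chromosome 5, 110286319 to 110337468), of the leading-strand polymerase epsilon, was 72.8, 69.9, 56.1 and 64.7 CPM in wild-type and 90.5, 84.5, 90.0 and 88.2 CPM in deleted cortex, higher without overlap (log2 fold change 0.43, SE 0.07, adjusted p = 0.000495). Pold1, of polymerase delta, was 93.1, 87.0, 63.8 and 84.1 CPM in wild-type and 66.5, 68.5, 67.7 and 70.3 CPM in deleted cortex. Its wild-type replicate 3 was the lowest of all libraries, and the call (log2 fold change -0.26, adjusted p = 0.0375) was lost without any of 6 libraries, all but wild-type replicate 3 and deleted replicate 4 (adjusted p = 0.0534 to 0.0839). It was also lost with scaling by the upper quartile or by library size alone (adjusted p = 0.0591 and 0.0748), with the meningeal covariate (0.0853) and with limma voom (0.0631), so that Pold1 passed in 8 of 18 fits.

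The accessory subunits of these enzymes were taken from a wider list of 74 further replication and S-phase genes, in which 26 were lower, 21 higher and 27 not past the test. These are 35.1% lower and 28.4% higher, near the 29.6% and 29.5% of all tested genes. Pole2, the second subunit of polymerase epsilon, was 17.9, 18.6, 14.4 and 17.6 CPM in wild-type and 6.86, 6.75, 7.03 and 7.17 CPM in deleted cortex (log2 fold change -1.30, SE 0.09, adjusted p = 8.65e-07). It was 2.45-fold lower while Pole was 1.34-fold higher. Pole4, a small histone-fold subunit, was lower at 38.6 ± 1.72 against 27.9 ± 2.14 CPM, and its partner Pole3 was 41.0 ± 2.99 against 42.2 ± 2.18 CPM and did not pass (adjusted p = 0.58). Pold2, the regulatory subunit of polymerase delta, was 52.3, 48.1, 36.0 and 52.7 CPM in wild-type and 20.5, 22.4, 25.2 and 25.0 CPM in deleted cortex (log2 -1.02, SE 0.12, adjusted p = 3.74e-05). Pold3 and Pold4, the other accessory subunits of polymerase delta, had log2 fold changes of 0.04 and -0.04 and did not pass. Within each of these enzymes, then, some subunits passed the test and others did not, and in polymerase epsilon they passed in both directions.

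The clamp, its loader and the single-strand binding proteins held 9 members, with 2 higher, 1 lower and 6 short of the threshold. Rfc1, the large subunit of the clamp loader, was 91.3, 93.7, 84.3 and 89.4 CPM in wild-type and 107, 110.3, 113 and 102 CPM in deleted cortex (log2 0.27, SE 0.05, adjusted p = 0.000583). Rfc2 was 89.0, 83.7, 71.9 and 88.1 CPM in wild-type and 92.5, 99.4, 97.4 and 98.6 CPM in deleted cortex, also higher (log2 0.22, SE 0.06, adjusted p = 0.012), with the meningeal level as a covariate ending this call (adjusted p = 0.0618). Both were higher in all 4 deleted libraries. Rfc4, another small subunit of the same pentamer, was 42.2, 40.6, 37.5 and 40.7 CPM in wild-type and 32.9, 31.9, 32.4 and 34.1 CPM in deleted cortex, lower without overlap (log2 -0.29, SE 0.05, adjusted p = 0.000373). Rfc3 and Rfc5 were 50.5 ± 2.93 and 36.4 ± 2.43 CPM in wild-type and 47.8 ± 0.891 and 39.8 ± 1.68 CPM in deleted cortex, and neither passed (adjusted p = 0.167 and 0.0706). Without wild-type replicate 3 Rfc3 was called lower (adjusted p = 0.0469), and without wild-type replicate 1 Rfc5 was called higher (adjusted p = 0.0318). Rfc5 was also called higher with scaling by the upper quartile or by library size alone (adjusted p = 0.0356 and 0.0308). Pcna, the clamp that all these factors serve, was 109.5, 106, 98.7 and 107 CPM in wild-type and 95.9, 105, 97.3 and 100.1 CPM in deleted cortex. The Pcna ranges overlapped (log2 fold change -0.08, SE 0.04, adjusted p = 0.16), and Pcna was called lower without wild-type replicate 3 or without deleted replicate 2 (adjusted p = 0.0331 and 0.0454). The RPA subunits Rpa1, Rpa2 and Rpa3, which coat single-stranded DNA, had log2 fold changes of -0.05, 0.03 and -0.11, none past the test.

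All 4 nucleotide supply genes were lower in deleted cortex. Tk1 (Entrez gene 21877, chromosome 11, 117815519 to 117826087), the thymidine kinase of the salvage route, was 34.6, 31.6, 27.6 and 34.8 CPM in wild-type and 19.0, 21.7, 20.9 and 21.0 CPM in deleted cortex, 1.55-fold lower without overlap (log2 fold change -0.64, SE 0.08, adjusted p = 6.03e-05). Tyms, thymidylate synthase, makes dTMP by the de novo route. Its levels were 51.2, 48.4, 43.7 and 47.2 CPM in wild-type and 36.6, 39.0, 39.9 and 41.5 CPM in deleted cortex (log2 -0.28, SE 0.06, adjusted p = 0.00193). Rrm1, the large subunit of ribonucleotide reductase, was 286, 280.1, 247 and 272 CPM in wild-type and 221, 234, 239 and 229 CPM in deleted cortex (log2 -0.23, SE 0.05, adjusted p = 0.00255). Rrm2, its small subunit, whose level sets the S-phase activity, was 187, 167, 150.1 and 168 CPM in wild-type and 140.3, 152, 148 and 155 CPM in deleted cortex (log2 -0.17, SE 0.06, adjusted p = 0.0377). Tk1, Tyms and Rrm1 did not overlap between the groups, whereas for Rrm2 wild-type replicate 3 lay among the deleted libraries. The Rrm2 call was lost without wild-type replicate 1 or 4 or deleted replicate 1 or 3 (adjusted p = 0.0503 to 0.0817) and with scaling by the upper quartile or by library size alone, a replicate block or the meningeal covariate (adjusted p = 0.0733 to 0.124). Among 14 further nucleotide genes of the wider list, by contrast, 7 were higher and 6 lower (50% and 42.9%, beside 29.5% and 29.6% of all tested genes). They included Dctd, dCMP deaminase, at 21.6 ± 1.80 against 32.4 ± 0.918 CPM (log2 0.59, adjusted p = 1.96e-05). Dck, deoxycytidine kinase, was lower at 142 ± 2.77 against 109 ± 3.73 CPM (log2 -0.38, adjusted p = 1.12e-05), and so was Ctps, CTP synthase, at 142 ± 3.22 against 109 ± 3.71 CPM (log2 -0.37, adjusted p = 1.54e-05).

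The 5 genes of flap processing, ligation and repair had the smallest median size of change of the 8 role groups, 0.08 on the log2 scale, with 1 lower, 1 higher and 3 not past the test. Fen1, the flap endonuclease of Okazaki fragment maturation, was 59.6 ± 6.10 against 62.9 ± 2.56 CPM, and Lig1, the ligase that seals the fragments, 120.0 ± 13.5 against 117 ± 5.71 CPM. Neither passed the test (adjusted p = 0.343 and 0.741), nor did Ung, the uracil glycosylase, at 27.1 ± 3.05 against 26.4 ± 1.27 CPM (adjusted p = 0.716). Exo1, an exonuclease of mismatch repair, was lower, 39.4, 33.9, 30.7 and 34.6 CPM in wild-type and 30.2, 31.4, 28.7 and 29.0 CPM in deleted cortex with overlapping groups (log2 -0.21, SE 0.07, adjusted p = 0.0255). With scaling by library size alone Exo1 did not pass (adjusted p = 0.0701). Mcm8, an MCM relative that acts in recombination with MCM9, was higher, 22.7, 24.0, 21.0 and 22.2 CPM in wild-type and 28.3, 24.4, 24.2 and 26.7 CPM in deleted cortex (log2 0.21, SE 0.07, adjusted p = 0.0184). That call was lost without wild-type replicate 4 or deleted replicate 1 or 4 (adjusted p = 0.0506 to 0.0643). RNase H2, which removes ribonucleotides from new DNA, was split in the wider list. Rnaseh2b was 52.9, 49.4, 47.5 and 53.0 CPM in wild-type and 20.5, 18.9, 22.1 and 21.2 CPM in deleted cortex (log2 -1.29, SE 0.06, adjusted p = 8.29e-08), while Rnaseh2c was higher at 27.5 ± 1.10 against 39.9 ± 3.89 CPM (log2 0.53, adjusted p = 6.9e-05). The catalytic subunit Rnaseh2a was 34.2 ± 4.13 against 35.4 ± 2.05 CPM and did not pass (adjusted p = 0.612).

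Of the 4 genes of G1/S control, 2 were lower, 1 higher and 1 not past the test. E2f1 (Entrez gene 13555, chromosome 2, 154559400 to 154569892), an E2F activator that drives many genes of this set, was 47.5, 44.8, 35.8 and 43.9 CPM in wild-type and 25.5, 29.4, 26.9 and 27.5 CPM in deleted cortex. It was 1.57-fold lower without overlap (log2 fold change -0.65, SE 0.08, adjusted p = 7.33e-05). Ccne1, a cyclin E that activates CDK2, was 19.2, 19.4, 16.0 and 17.4 CPM in wild-type and 13.2, 14.1, 15.4 and 14.0 CPM in deleted cortex (log2 -0.34, SE 0.08, adjusted p = 0.00318). The second cyclin E gene, Ccne2, did not pass at 21.2 ± 2.25 against 19.8 ± 1.11 CPM (adjusted p = 0.276), and wild-type replicate 3 was its highest library. Dtl, which directs CDT1 for destruction in S phase, was 63.1, 64.4, 55.6 and 60.4 CPM in wild-type and 69.9, 69.3, 69.1 and 70.2 CPM in deleted cortex, higher without overlap (log2 0.19, SE 0.05, adjusted p = 0.00519). In the wider list of 16 E2F, pocket protein and S-phase kinase genes, 4 were lower, 2 higher and 10 not past the test. Tfdp2, a DNA-binding partner of E2F, was lower at 92.7 ± 1.55 against 62.5 ± 3.24 CPM (log2 -0.57, adjusted p = 1.87e-06). Cdc25a, the phosphatase that activates CDK2, was lower at 68.8 ± 4.79 against 46.9 ± 1.87 CPM (log2 -0.55, adjusted p = 1.32e-05), and Fbxo5, an inhibitor of the anaphase-promoting complex, higher at 38.7 ± 0.574 against 43.7 ± 0.894 CPM (log2 0.18, adjusted p = 0.00206).

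Chromatin behind the fork was represented by 3 members, 2 of them lower. Chaf1b (Entrez gene 110749, chromosome 16, 93883900 to 93906115), the middle subunit of the histone chaperone CAF-1, was 42.6, 40.5, 33.7 and 40.0 CPM in wild-type and 25.2, 31.2, 29.1 and 29.1 CPM in deleted cortex (log2 -0.45, SE 0.08, adjusted p = 0.00084). The large subunit Chaf1a was 75.5, 72.9, 55.8 and 70.0 CPM in wild-type and 61.5, 67.0, 61.9 and 60.4 CPM in deleted cortex and did not pass (log2 -0.13, adjusted p = 0.221) unless wild-type replicate 3 was left out (log2 -0.22, adjusted p = 0.002). Uhrf1, which brings DNA methyltransferase to newly made DNA, was 160.1, 147, 117 and 144 CPM in wild-type and 98.9, 115, 112 and 112 CPM in deleted cortex, lower without overlap (log2 -0.37, SE 0.09, adjusted p = 0.00376). Dnmt1, that methyltransferase, is in the wider list and was lower at 338 ± 26.4 against 285 ± 9.75 CPM (log2 -0.24, adjusted p = 0.00367). There the histone chaperones went both ways, Asf1b lower at 20.8 ± 2.47 against 15.7 ± 0.832 CPM (log2 -0.40, adjusted p = 0.00261) and Nasp higher at 416 ± 15.5 against 466 ± 11.3 CPM (log2 0.16, adjusted p = 0.00393).

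Factors that fire origins and protect forks completed the wider list. Of 9 initiation kinases and firing factors, 5 were higher and 1 lower (55.6% and 11.1%, beside 29.5% and 29.6% of all tested genes). Wdhd1 (AND-1), which ties polymerase alpha to the helicase, rose from 52.6 ± 3.51 to 64.9 ± 0.920 CPM (log2 0.30, adjusted p = 0.000365). Mtbp and Donson, both needed to assemble the active helicase, rose by 0.38 and 0.27 on the log2 scale (adjusted p = 0.000365 and 0.000696). Of 8 fork protection and checkpoint genes, 3 were lower and 2 higher. Timeless, a fork protection factor, was 74.8, 67.1, 50.8 and 68.3 CPM in wild-type and 30.7, 31.5, 31.2 and 29.6 CPM in deleted cortex (log2 -1.08, SE 0.10, adjusted p = 7.56e-06). Its partner Tipin, by contrast, was 52.1 ± 2.61 against 53.9 ± 1.31 CPM and did not pass (adjusted p = 0.335). Clspn (claspin), which relays the checkpoint signal, was lower at 54.2 ± 6.48 against 31.7 ± 1.32 CPM (log2 -0.77, adjusted p = 1.43e-05), as was the checkpoint kinase Chek1 at 32.7 ± 2.29 against 25.7 ± 0.626 CPM (log2 -0.35, adjusted p = 0.000323). Of 8 clamp partners and other loaders, 3 were lower, among them Dscc1 of an alternative clamp loader (log2 -0.65, adjusted p = 0.00288). Rad1 and Hus1, both of the checkpoint clamp, were higher (log2 0.39 and 0.20, adjusted p = 0.00232 and 0.00572). Top1, which relaxes DNA ahead of the fork, was among 4 lower genes of 6 in fork topology and Okazaki fragments, at 461 ± 32.7 against 331 ± 19.8 CPM (log2 -0.47, adjusted p = 5.66e-05).

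Some members begin next to a diverging neighbour, so that both promoters lie in the DNA around and between the starts. Within 1000 bases 13 such pairs were found, in 12 of which both genes were tested. In 3 pairs both genes passed the test. Dtl and Ints7, a subunit of the Integrator complex, start 92 bases apart. Ints7 was 82.3, 88.5, 73.8 and 86.3 CPM in wild-type and 44.1, 44.1, 43.4 and 41.9 CPM in deleted cortex (log2 fold change -0.93, SE 0.06, adjusted p = 4.68e-07), lower without overlap, whereas Dtl was higher. The stretch of Dtl printed above reaches from its start towards the start of Ints7 that gave the 92 bases. The annotated spans overlap, since Dtl reaches to 191575544 and Ints7 begins at 191575540. The printed stretch thus also lies within the Ints7 span. Orc3 and Rars2, the mitochondrial arginyl-tRNA synthetase, start 15 bases apart, and Rars2 was 34.7 ± 1.89 against 35.7 ± 1.84 CPM (log2 fold change 0.04, adjusted p = 0.581) where Orc3 was lower. Their annotated spans overlap too, with Orc3 reaching to 34614963 and Rars2 beginning at 34614957. The Orc3 stretch printed above thus lies within the Rars2 span. Orc4 and Mbd5, which encodes a protein with a methyl-CpG binding domain, start 241 bases apart, and Mbd5 had a log2 fold change of -0.04 (adjusted p = 0.411). The annotated spans of these 2 genes overlap on chromosome 2, where Orc4 reaches to 48952902 and Mbd5 begins at 48949499. Fen1, not past the test, had a lower neighbour, Tmem258, at 45.9 ± 3.31 against 37.9 ± 2.33 CPM (adjusted p = 0.00371). The other 2 pairs with both genes called were Orc5 with 6030443J06Rik, in opposite directions, and Orc2 with Gm15834, in the same direction, and both neighbours were low (1.21 and 0.301 CPM in wild-type cortex).

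**Figure D5:**
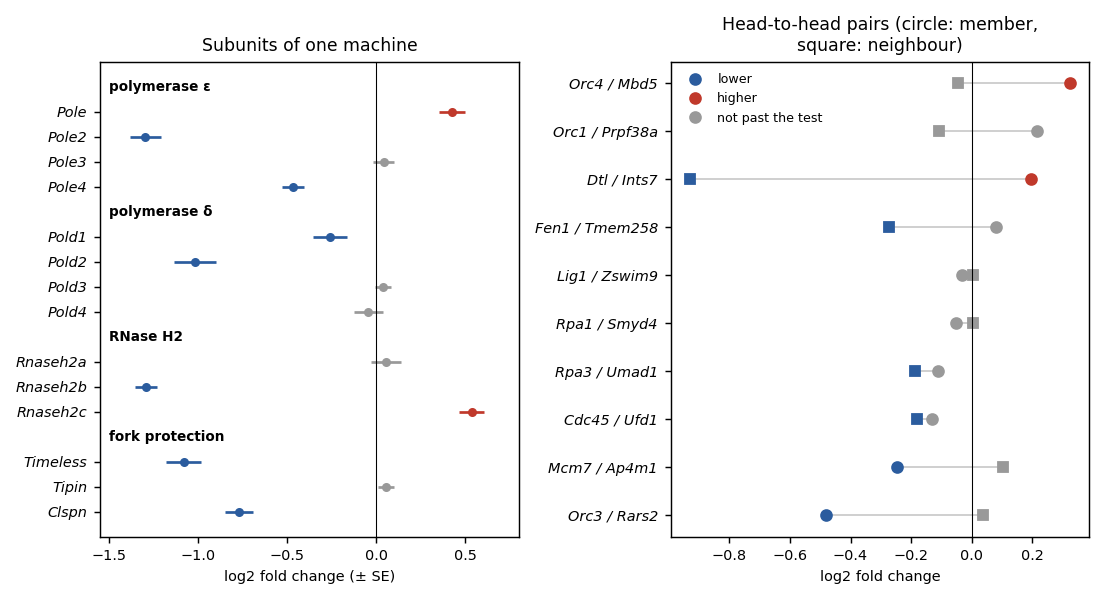
Left, log2 fold change (± SE) of the subunits of polymerase epsilon, polymerase delta, RNase H2 and the fork protection factors. Right, log2 fold change of 10 members (circles) and their head-to-head neighbours (squares), leaving out neighbours under 5 CPM. Pole and Pole2 lie on opposite sides of 0, as do Rnaseh2b and Rnaseh2c, and Dtl and Ints7.

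Levels can be compared between genes only per length, and on that scale, CPM per kilobase of gene length, the 52 genes spanned a wide range. In wild-type cortex Pcna (83.5), Rrm2 (77.0) and Mcm7 (73.2) were the most abundant and Exo1 (6.29), Cdc6 (5.18) and Orc1 (2.55) the least. Some neighbours in this order, such as Mcm6 (68.0) and Rrm1 (67.9), were nearly level, while others, such as Cdc6 and Orc1, lay farther apart. The order was similar in deleted cortex, where Pcna (79.1) and Rrm2 (68.3) again led and Orc1 (2.95) was again last. Gmnn went from place 20 (28.1) to place 39 (12.3) and Gins1 from place 25 (23.3) to place 40 (11.3). Orc5 went the other way, from place 35 (17.7) to place 22 (25.0).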

How the data were processed

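Per the labels' protocols, polyadenylated RNA (RNeasy kit) was made into stranded libraries. The deposited values are raw counts of reads per Entrez gene, which the authors made with Subread 1.5.0 and featureCounts on mm10, per the submitters' processing notes. The sources used here do not state the annotation, the strand setting or the handling of reads with several matches. Genes that overlap a neighbour (such as Tk1, Ung, Orc1, Orc3, Orc4, Cdc45, Mcm7, Dtl and Fen1) or have pseudogene copies (Pcna and Tyms) are uncertain for that reason. The count matrix differed from the single-sample files in 0 values. Pairs of libraries within a group differed by more than sampling noise (chi-square over degrees of freedom 3.56 to 27.0), and each was counted as 1 replicate.

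The members, their roles, the wider list, the marker lists and the promoter letters were chosen with earlier results of these data known. Groups came from the labels. Counts were compared in R 4.3.3 with edgeR 4.0.16 (TMM scaling, filterByExpr, quasi-likelihood F-test on group). P-values were adjusted by Benjamini-Hochberg over 15649 genes, and the threshold was 0.05. Fold changes come from that fit, and their SEs from its F statistics. The steps were tested on simulated counts. Values per library are given for Taf8, for the helicase activation genes and for up to 4 members of each role by smallest adjusted p or against the direction of their role. Those of Cdt1, Mcm2, Orc4, Prim1, Pold1, Pcna, Chaf1a and the wider list were added after their values were seen, for their place in a complex or their dependence on 1 library. Orc2 and Orc6 are given as mean ± SD although the rule for members includes them, and Mcm6 per library although it does not. The wider list is named by up to 3 genes per sub-list by smallest adjusted p, together with Pole3, Pold3, Pold4, Rnaseh2a and Tipin, chosen after their values were seen as partners of named subunits. Alternatives were other scalings, no filter or 1 CPM in 4 libraries, a replicate block, each library left out, the meningeal level as a covariate, a test against 1.2-fold, a threshold of 0.01, limma 3.58.1 voom and DESeq2 1.42.0.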

Additional observations from a re-analysis of the deposited data

Results flagged for a closer look

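In 4 of the 154 groups of 4 libraries examined, the lowest library lay far from the others by Dixon's criterion, its gap to the nearest taking up most of the range of the group. Chance alone gives this in about 1 of 20 groups. Orc1 was 5.57 CPM in wild-type replicate 3, where the nearest other wild-type library had 8.17 CPM. Cdc45 was 32.1 CPM in the same library, against 41.5 CPM in the nearest. Orc2 was 58.9 CPM in wild-type replicate 4, against 62.3 CPM in the nearest. Uhrf1 was 98.9 CPM in Taf8-deleted replicate 1, against 112.0 CPM in the nearest.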

How the results depend on the processing

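Over 18 fits, 15 members were called lower in each (Orc3, Gmnn, Mcm6, Mcm7, Gins1, Mcm10, Pola1, Rfc4, Rrm1, Tyms, Tk1, Ccne1, E2f1, Chaf1b and Uhrf1), 6 were called higher in each (Orc2, Orc5, Orc6, Pole, Rfc1 and Dtl) and 16 were called in none. Leaving out 1 library at a time gave 16 to 25 lower and 7 to 9 higher members, and a median log2 fold change of -0.11 to -0.06. A test against 1.2-fold left 7 lower and 2 higher members, and 13 lower and 4 higher genes of the wider list, since it asks for a larger change. At adjusted p under 0.01, 14 members were lower and 6 higher. Replicate numbers did not pair the libraries (correlation of the deviations of same-numbered libraries -0.28, 0.01, -0.07 and -0.46). A replicate block gave 17 lower and 8 higher members, without Mcm3, Orc4 and Rrm2. For genes that were not called, the sign of a log2 fold change near 0 turned in some fits, and the cause was not tested. Gins3 was 0.0072 with upper-quartile scaling and 0.020 with library size alone. Pola2 was 0.024 and 0.037 in these, 0.0026 with the 1 CPM filter and 0.0060 with voom. With library size alone Lig1 was 0.010 and Ung 0.0048. Smyd4 was -0.0023 with size factors, -0.0012 with no filter and -0.0014 with DESeq2. With the meningeal covariate Cdc6 was -0.020, Mcm4 -0.012, Mcm5 -0.080, Rpa2 -0.030 and Zswim9 -0.038. Leaving out single libraries gave -0.059 to 0.049 for Cdc6, -0.045 to 0.045 for Mcm4, -0.092 to 0.057 for Mcm5, -0.066 to 0.0030 for Gins3, -0.013 to 0.011 for Gins4, -0.076 to 0.027 for Pola2, -0.056 to 0.064 for Rpa2, -0.11 to 0.0076 for Lig1, -0.11 to 0.0061 for Ung, -0.040 to 0.029 for Zswim9, -0.0069 to 0.066 for Rars2 and -0.038 to 0.015 for Smyd4. Depth limits no member, since each had at least 230.0 counts in every library.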

Other observations

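Other promoter letters were counted in the same 42 windows on both strands, as a description. ATTGG, the core of the CCAAT box that lies before many cell cycle genes, was in 26 windows (61.9%) against 42.9% of tested genes. These 26 genes comprised 8 lower, 6 higher and 12 not past the test, and the 16 without it 8 lower, 1 higher and 7 not past the test. TTTGAA, the letters of the CHR element of genes expressed in G2 and mitosis, was in 4 windows (9.52%) against 14.1%, those of Cdc45, Fen1, Gins3 and Mcm2, none of which passed the test. TATAAA, the TATA box, was in 2 windows (4.76%) against 8.99%.

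Of 20 genes of G2 and mitosis, the phases after replication, 5 were lower (Ccnb2, Cdk1, Plk1, Bub1 and Ube2c), 2 were higher (Cenpe and Kif23) and 13 did not pass, with a summed level of 2035 to 2404 CPM in wild-type and 2133 to 2194 CPM in deleted cortex. That is 35% past the test, against 59.2% of all tested genes. Of 6 markers of intermediate progenitors, the cycling cells of the subventricular zone, Neurog2, Btg2 and Gadd45g were higher and Eomes and Insm1 lower (875 to 1044 against 984 to 1081 CPM).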
